A study of Mus musculus with 2 samples.

Results

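The accessible sites described here lie in the last 5 Mb of mouse chromosomes 1 to 19, at the end with the highest coordinates. They were measured in GSCs that lack Stag3, in 1 group of 2 ATAC-seq libraries called replicate 1 and replicate 2. Both libraries carry the genotype Stag3 KO and the reporters Acrosin-EGFP and beta-Actin-EGFP (AAG), and both came from viable AAG-positive sorted cells. GSC is the cell type as labelled, a name used in work on the male germline for germline stem cells, that is, spermatogonial stem cells kept in culture. Strain, age, the number of lines or clones, the part of Stag3 that was removed and whether the replicates were separate cultures are not given in the sources used here. The wild-type cells named in the study's design as the comparison are not analysed here, so no value below is an effect of the knockout.

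A site was a replicate 1 peak that overlapped a replicate 2 peak by at least 1 bp. It counted as a tip site when it started within 5 Mb of the largest peak end of its chromosome in either library. This rule gave 4778 tip sites of 81515 shared sites on the 19 autosomes (5.86%, 95% Wilson interval 5.70 to 6.02), against 76737 on the rest of these chromosomes. The rule used position only, so density and fold enrichment were free to vary. Chromosome lengths were not used, and the last peak stands for the chromosome end. On the median chromosome the last annotated gene and the last peak ended 16.9 kb apart, and at most 123.9 kb apart. The 19 tips held between 46 and 448 sites each, with a median of 265.

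ATAC-seq uses the Tn5 transposase, which inserts adapters where DNA is not covered by nucleosomes, so its peaks mark open promoters, enhancers and insulators. Mouse autosomes carry the centromere at the low-coordinate end and a telomere at both ends, so the windows studied here lie next to the distal telomere. STAG3 is a cohesin subunit of germ cells. Cohesin is a ring that keeps sister chromatids paired and also extrudes chromatin loops. In meiosis, telomeres attach to the nuclear envelope and move chromosomes to find their partners. Subtelomeric DNA often holds gene families and repeats that differ between individuals and strains.

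Replicate 1 held 107331 peaks and replicate 2 held 98986 peaks over all chromosomes. The number of reads is not given in the sources used here. The labelled cell type was set against its markers, scored by a shared peak within 1000 bp of a gene end. All 14 of 14 spermatogonial marker genes had one, as did 4 of 7 Sertoli and Leydig genes (not Gata4, Star or Insl3), 2 of 4 feeder and fibroblast genes (not Col3a1 or Dcn) and 1 of 4 blood and endothelial genes (not Ptprc, Cdh5 or Pecam1). Over all autosomal protein-coding genes 67.0% had one, so the shares of the Sertoli and Leydig and of the feeder lists were not far from that of any gene. An open site is not expression, and the part of other cells in the results was not tested. Stag3 itself lies outside the windows, 13.4 Mb from the last peak of chromosome 5, and the peak at its end had folds of 6.27 and 6.72, which does not check the knockout.

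The promoters of 8 tip genes are printed as examples of open tip promoters, and they do not stand for tip sites away from gene starts. Each is 300 bases from RefSeq on GRCm38.p6, written 5′ to 3′ on the gene's own strand, with 250 bases before the start of the transcript and 50 after it. Capitals mark matches, on either strand, to a GC box (GGGCGG), a site for ETS factors (CCGGAAG) or a CCAAT box. Gfra1, Sycp2, Pds5b, Rtel1 and Gtsf1 are germline, cohesin or telomere genes of the tips. Sfxn4, Depdc1a and Zfp950 are among the 5 protein-coding genes whose covered promoters had the strongest peaks of all tips. Not printed are the covered promoters of Rarg, Syce1 and Tdrd1, which had no match to any of these motifs. Also left out are those of Tpcn2 and Gm14325, with 6 and 5 CpG dinucleotides and 2 CCAAT boxes each.
Gfra1, chr19:58455349-58455648, minus strand: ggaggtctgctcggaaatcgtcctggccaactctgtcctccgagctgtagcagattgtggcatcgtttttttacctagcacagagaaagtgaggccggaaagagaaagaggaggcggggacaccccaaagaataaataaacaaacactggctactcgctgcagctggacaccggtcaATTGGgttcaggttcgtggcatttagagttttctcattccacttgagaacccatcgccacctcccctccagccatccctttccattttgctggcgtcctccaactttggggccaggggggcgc
Sycp2, chr2:178407609-178407908, minus strand: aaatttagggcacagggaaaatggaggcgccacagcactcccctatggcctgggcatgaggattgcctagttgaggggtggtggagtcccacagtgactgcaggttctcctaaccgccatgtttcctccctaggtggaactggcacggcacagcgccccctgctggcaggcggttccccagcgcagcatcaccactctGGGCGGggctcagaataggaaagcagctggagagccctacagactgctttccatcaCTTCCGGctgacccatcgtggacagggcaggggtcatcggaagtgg
Pds5b, chr5:150673577-150673876, plus strand: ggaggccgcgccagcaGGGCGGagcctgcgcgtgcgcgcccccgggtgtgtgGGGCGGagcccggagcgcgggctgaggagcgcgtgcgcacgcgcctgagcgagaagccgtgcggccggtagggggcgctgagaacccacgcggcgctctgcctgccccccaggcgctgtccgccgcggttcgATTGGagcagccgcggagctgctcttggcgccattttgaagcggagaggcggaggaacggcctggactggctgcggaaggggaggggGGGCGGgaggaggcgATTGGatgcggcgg
Rtel1, chr2:181319474-181319773, plus strand: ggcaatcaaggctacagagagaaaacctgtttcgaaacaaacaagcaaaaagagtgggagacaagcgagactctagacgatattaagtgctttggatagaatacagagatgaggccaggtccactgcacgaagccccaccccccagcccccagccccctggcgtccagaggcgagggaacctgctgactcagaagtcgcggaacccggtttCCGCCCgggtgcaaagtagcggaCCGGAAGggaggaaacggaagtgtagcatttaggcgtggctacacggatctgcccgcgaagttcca
Gtsf1, chr15:103430378-103430677, minus strand: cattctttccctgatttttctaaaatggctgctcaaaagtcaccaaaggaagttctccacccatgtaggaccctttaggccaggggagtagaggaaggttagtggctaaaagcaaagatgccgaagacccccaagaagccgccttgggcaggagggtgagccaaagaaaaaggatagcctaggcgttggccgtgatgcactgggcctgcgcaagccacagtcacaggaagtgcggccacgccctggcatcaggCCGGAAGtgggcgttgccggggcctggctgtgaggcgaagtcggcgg
Sfxn4, chr19:60861379-60861678, minus strand: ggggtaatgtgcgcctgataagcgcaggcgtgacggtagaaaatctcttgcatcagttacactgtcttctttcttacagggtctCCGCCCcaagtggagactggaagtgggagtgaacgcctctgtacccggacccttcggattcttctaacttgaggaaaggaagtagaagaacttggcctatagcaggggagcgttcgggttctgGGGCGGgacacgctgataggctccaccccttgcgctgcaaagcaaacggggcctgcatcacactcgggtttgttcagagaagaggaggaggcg
Depdc1a, chr3:159495183-159495482, plus strand: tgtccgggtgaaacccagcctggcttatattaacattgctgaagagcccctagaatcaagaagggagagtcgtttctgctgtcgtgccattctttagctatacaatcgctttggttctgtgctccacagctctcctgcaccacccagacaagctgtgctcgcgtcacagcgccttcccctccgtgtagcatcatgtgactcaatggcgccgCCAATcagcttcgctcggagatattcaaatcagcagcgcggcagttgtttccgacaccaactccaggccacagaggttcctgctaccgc
Zfp950, chr19:61140791-61141090, minus strand: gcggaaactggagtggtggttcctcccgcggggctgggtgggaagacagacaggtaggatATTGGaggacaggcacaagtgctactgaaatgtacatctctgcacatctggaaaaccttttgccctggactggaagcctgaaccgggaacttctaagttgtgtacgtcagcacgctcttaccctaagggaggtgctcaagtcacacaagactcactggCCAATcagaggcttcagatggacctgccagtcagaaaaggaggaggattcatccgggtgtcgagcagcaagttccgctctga

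The open promoter of Pds5b, a regulator of cohesin release, was the richest in G and C of the 8, at 75.7%, with 41 CpG dinucleotides, 3 GC boxes and 2 CCAAT boxes. The promoter of Gfra1, the receptor through which spermatogonial stem cells sense GDNF, had 54.0% G and C, 12 CpG dinucleotides, no match to the GC box and 1 CCAAT box. Both Gtsf1, a piRNA pathway gene, and Rtel1, the helicase that unwinds telomere loops, had 1 ETS match. Sycp2, an axis protein of meiotic chromosomes, had 1 GC box and 1 ETS match. Zfp950, a zinc finger gene 190.3 kb from the last peak of chromosome 19, had 2 CCAAT boxes and neither of the other motifs. A match is a run of letters and does not show that a factor binds there.

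Tip sites stood closer together than sites on the rest of the chromosomes, on most chromosomes and over all of them. Over all 19 chromosomes the tips held 50.3 shared sites per Mb, against 33.3 per Mb on the rest. Replicate 1 alone had 61.8 peaks per Mb in the tips and 42.7 on the rest, and replicate 2 had 58.3 and 39.4. The median chromosome had a ratio of tip to rest of 1.56 for shared sites, 1.53 in replicate 1 and 1.57 in replicate 2. The tip was the denser part on 15 of 19 chromosomes, in both libraries and for shared sites. With a window of 2 Mb in place of 5 Mb the median chromosome turned, at a ratio of 0.92 with the tip denser on 9 of 19 chromosomes. Summed over chromosomes, the outer 2 Mb still held 41.7 shared sites per Mb, above the 33.3 of the rest.

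The difference between tip and rest was larger than the gap between the libraries on 18 of 19 chromosomes, the exception being chromosome 12. The largest gap between the libraries in the ratio was 0.22 and the median gap was 0.061. With 1 group of 2 libraries, and sites of 1 chromosome that share their source, no test was run and the values stand as a description. In these bulk libraries a site open in fewer cells and a site less open in each cell cannot be told apart.

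**Figure D1:**
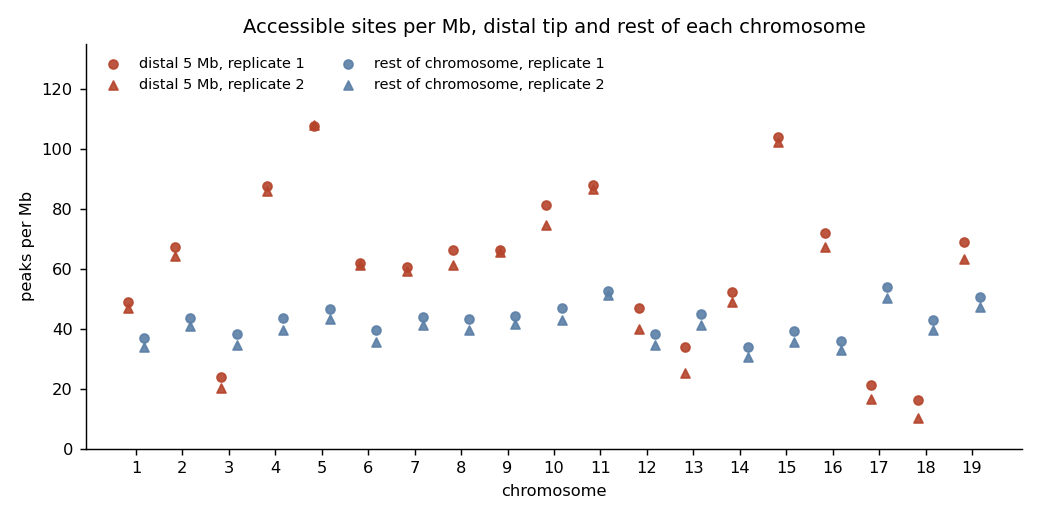
Peaks per Mb (y axis) on each of the 19 autosomes (x axis), with the distal 5 Mb in red to the left of the rest of the chromosome in blue; circles are replicate 1 and triangles replicate 2. The red points lie above the blue ones on 15 chromosomes and below them on chromosomes 3, 13, 17 and 18.

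Chromosomes differed more from each other in their tips, where shared sites ran from 9.20 to 89.6 per Mb, than on the much longer rest, where they ran from 25.5 to 43.0 per Mb. The windows of equal size at the low-coordinate ends had a similar spread, from 8.80 to 82.0 per Mb. Chromosome 15 had the highest ratio, 2.86, with 104.0 peaks per Mb in the tip and 39.2 on the rest in replicate 1, and 102.4 and 35.7 in replicate 2. Chromosome 5 followed at 2.45, with 107.6 and 46.5 peaks per Mb in replicate 1 and 108.0 and 43.3 in replicate 2. Chromosome 4 had a ratio of 2.25, with 87.6 and 43.6 in replicate 1 and 86.0 and 39.7 in replicate 2. These 3 tips stood above their chromosomes in both libraries by far more than the libraries differed.

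At the other end, chromosome 18 had a ratio of 0.28, with 16.2 peaks per Mb in the tip and 42.8 on the rest in replicate 1, and 10.2 and 39.5 in replicate 2. Chromosome 17 had a ratio of 0.34, with 21.2 and 53.9 in replicate 1 and 16.6 and 50.4 in replicate 2. Chromosomes 3 and 13 had ratios of 0.59 and 0.67. The libraries also shared fewer peaks in the sparse tips, with 56.8% of replicate 1 tip peaks on chromosome 18 found in replicate 2 and 67.9% on chromosome 17, against 77.1% and 79.4% on the rest of these chromosomes.

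Within the windows, density was lower in the outermost stretch than further in. The outermost 1 Mb held 35.7 shared sites per Mb, slightly above the 33.3 of the rest, but the median chromosome had a ratio to its rest of 0.82, and 8 of 19 chromosomes lay above their rest. The stretch from 2 to 5 Mb held 56.0 per Mb, with a median ratio of 1.83 and 15 of 19 chromosomes above. High density did not stop at the window's edge. The block from 5 to 10 Mb had a median ratio of 1.39 with 17 of 19 chromosomes above, and that from 10 to 20 Mb had 1.21 with 13 above. Single bins at 7 to 8 Mb and at 14 to 15 Mb, with medians of 1.84 and 1.78, were as high as any inside the windows.

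**Figure D2:**
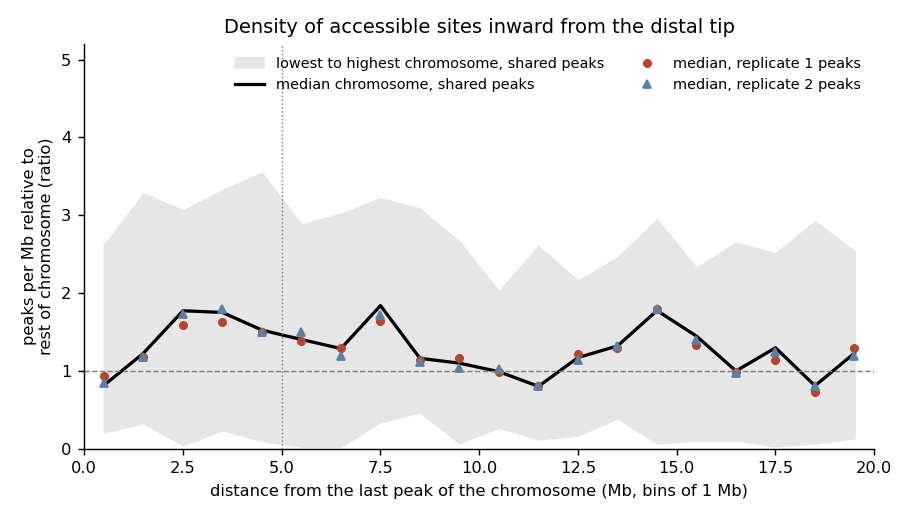
Peaks per Mb relative to the rest of the chromosome (y axis, ratio) in bins of 1 Mb inward from the last peak (x axis); the line is the median of 19 chromosomes for shared sites, the band their lowest to highest, points the medians of each library, and the dotted line the 5 Mb boundary. The median is 0.82 in the outermost bin and 1.77 from 2 to 3 Mb, and it reaches 1.84 again from 7 to 8 Mb.

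At the boundary the values changed little. The bin from 4 to 5 Mb, just inside, held 53.7 sites per Mb with median folds of 10.7 and 10.7 in replicates 1 and 2. The bin from 5 to 6 Mb, just outside, held 46.2 per Mb with median folds of 11.2 and 11.5. The opposite end of the chromosomes was different. The 5 Mb after the first peak held 2987 shared sites, with a median ratio of 0.92 and 9 of 19 chromosomes above 1. On 15 of 19 chromosomes the ratio of the distal tip was above that of the low-coordinate end.

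Gene density moved with site density. The tips held 1098 protein-coding genes, or 11.6 per Mb, against 8.48 per Mb on the rest, but the median chromosome had a gene density ratio of 0.99. The tip held more genes per Mb on 9 of 19 chromosomes, and all 9 were also denser in sites. Another 6 were denser in sites with fewer genes per Mb, and the remaining 4 were lower in both. Across the 19 chromosomes the log2 ratios of site and gene density had a Pearson r of 0.82 and a Spearman rho of 0.76. Without chromosomes 10 and 17, the farthest from the median in gene density, r was 0.80. Both ratios share their windows, and genes themselves carry sites, so the correlation is a description.

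**Figure D3:**
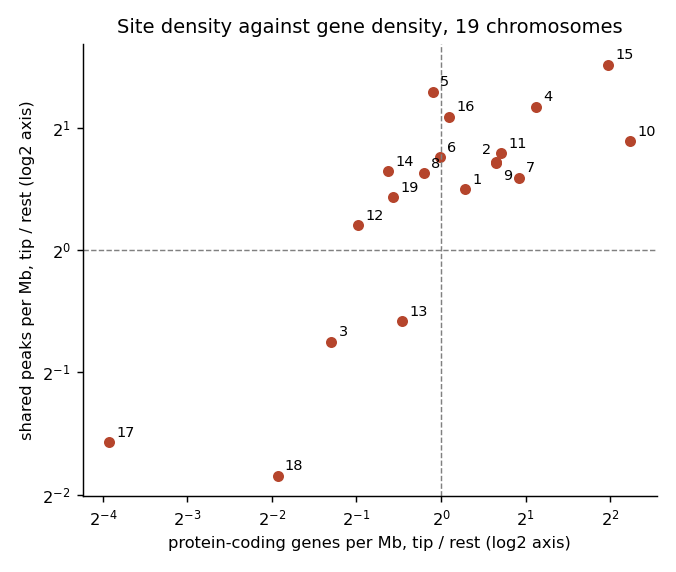
Shared sites per Mb, tip over rest (y axis, log2 axis), against protein-coding genes per Mb, tip over rest (x axis, log2 axis), for 19 chromosomes given by number; dashed lines mark a ratio of 1. Chromosomes 5, 6, 8, 12, 14 and 19 lie above 1 in sites and below 1 in genes, and chromosomes 3, 13, 17 and 18 lie below 1 in both.

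Per gene, the tips held 4.35 shared sites, against 3.92 on the rest, a ratio of 1.11. With a window of 2 Mb this ratio turned to 0.79. Genes were closest together in the outermost 1 Mb, at 14.1 protein-coding genes per Mb, the bin with the fewest shared sites per Mb of the 5 in the windows.

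The height of the sites differed little between the tips and the rest. Fold enrichment, the authors' ratio of tags at the summit to local background, had a median of 11.1 in the tips and 10.8 on the rest in replicate 1, and of 10.9 and 10.5 in replicate 2. The quartiles of tip sites were 6.58 and 18.2 in replicate 1, against 6.62 and 17.8 on the rest, so the distributions overlapped widely. The median was higher in the tip in both libraries on 9 of 19 chromosomes and lower in both on 6, which were chromosomes 5, 7, 10, 13, 15 and 16. The difference between tip and rest was larger than the gap between the libraries on 11 of 19. These were the 9 with the higher median in the tip, and chromosomes 5 and 13 with the lower one. On chromosomes 7, 10, 15 and 16 the difference was within that gap in at least 1 library. The mean of both library medians was 10.99 in the tips and 10.7 on the rest, and with a window of 2 Mb it was 10.6 and 10.7, so the direction turned.

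**Figure D4:**
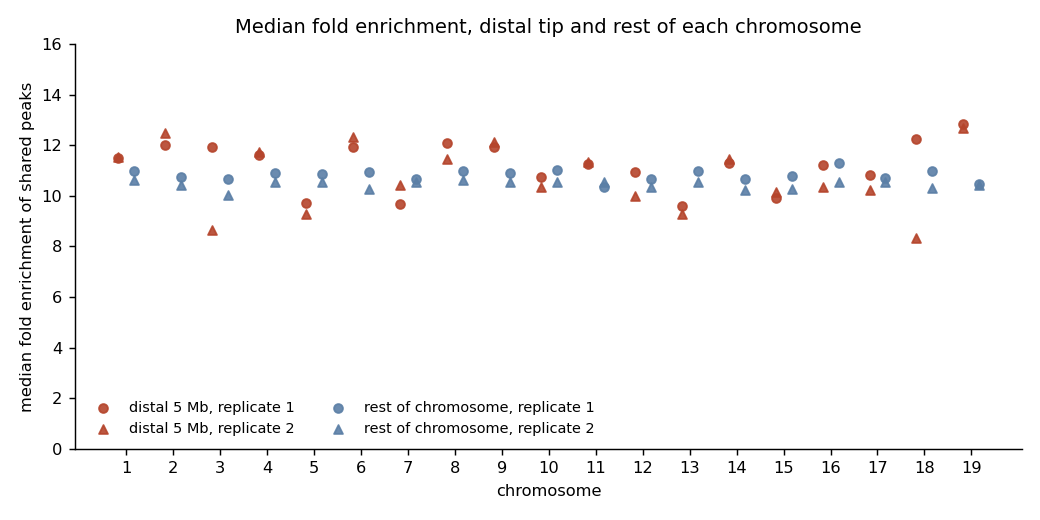
Median fold enrichment of shared sites (y axis) on each of the 19 autosomes (x axis), with the distal 5 Mb in red to the left of the rest of the chromosome in blue; circles are replicate 1 and triangles replicate 2. The tip medians run from 8.32 to 12.9 over both libraries, whereas those of the rest run from 10.04 to 11.3.

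Chromosome 19 had the largest difference, with median folds of 12.9 in the tip and 10.5 on the rest in replicate 1, and 12.7 and 10.4 in replicate 2. On chromosome 18, whose tip held 46 sites, the libraries disagreed: replicate 1 had 12.2 in the tip and 10.97 on the rest, and replicate 2 had 8.32 and 10.3. The dense tip of chromosome 5 had lower medians than its rest in both libraries, with 9.72 and 9.28 against 10.9 and 10.6. That of chromosome 15 was also lower, with 9.93 and 10.2 against 10.8 and 10.3. There the difference in replicate 2 was smaller than the gap between the libraries. The dense tip of chromosome 4 was higher in both libraries, with 11.6 and 11.7 against 10.9 and 10.6. The tags recovered at the summits had medians of 57 in the tips and 52 on the rest in replicate 1, and 56 and 51 in replicate 2. Tip sites had a median width of 403 bp, against 396 bp on the rest.

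The libraries found tip sites again somewhat more often than others. Replicate 2 held an overlapping peak for 81.4% of replicate 1 tip peaks (95% Wilson interval 80.3 to 82.3) and for 78.0% (77.7 to 78.2) of those on the rest, with 78.1% over all autosomal replicate 1 peaks. The share was higher in the tip on 13 of 19 chromosomes. In the other direction the shares were 86.6% of replicate 2 tip peaks and 84.7% of those on the rest. The summits of both libraries lay within 100 bp of each other at 92.6% of tip sites and 92.5% of the other sites. Across the sites with summits this close, 4423 in the tips and 71016 on the rest, log2 tags of the libraries correlated with r = 0.91 and r = 0.91. This is a description over sites, and sites with summits further apart were left out of it. Of the 4778 tip sites, 218 shared a replicate 2 partner with another tip site and are not separate in that library. On the rest this held for 3430 of 76737 sites, a similar share.

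The kinds of place in which tip sites lay had shares close to those elsewhere. Their summit lay within 1000 bp of an end of a protein-coding gene in 20.4% of cases (95% Wilson interval 19.2 to 21.5), against 20.6% on the rest, with 20.6% of all autosomal shared sites there. The tip share was the higher on 8 of 19 chromosomes. Gene bodies further inside held 38.9% of tip sites and 37.3% of the others, other annotated genes held 8.27% and 8.56%, and intergenic sequence held 32.5% and 33.6%. The make-up changed along the window, since 32.4% of sites in the outermost 1 Mb lay at a gene end, and 17.3% of those from 2 to 5 Mb. The order of tip and rest turned in 5 of 8 alternatives. The shares were 26.5% in the tips and 20.5% on the rest with a 2 Mb window, 28.1% and 27.8% within 2500 bp of a gene end, and 20.6% and 20.5% within 1000 bp of a RefSeq start. They were 18.3% and 17.7% in replicate 1 alone, and 19.6% and 19.2% in replicate 2 alone.

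Median fold was lower in the tips than on the rest at gene ends, and higher in the other kinds of place. At gene ends, tip sites had median folds of 10.4 in replicate 1 and 11.5 in replicate 2, against 11.5 and 12.4 on the rest, and were lower in both libraries on 12 of 19 chromosomes and higher in both on 3. Intergenic tip sites had medians of 11.9 and 11.2, against 11.0 and 10.3 on the rest, and were higher in both libraries on 11 of 19 chromosomes and lower in both on 3. In gene bodies the medians were 10.9 and 10.4 in the tips and 10.4 and 9.92 on the rest, with 9 chromosomes higher and 7 lower in both libraries. In other annotated genes they were 11.3 and 10.9 in the tips and 10.2 and 9.87 on the rest. Of the 18 chromosomes with such tip sites, 11 were higher and 4 lower in both libraries.

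The strongest tip site lay inside Ipo8, an importin gene on chromosome 6, at chr6:148825477-148825864, 760.7 kb from the last peak. It had folds of 39.3 in replicate 1 and 38.2 in replicate 2, on 365 and 415 tags. The next by mean rank of fold lay inside Atrnl1 on chromosome 19, at chr19:58011652-58012236, with 36.5 and 36.8. Of the strongest site of each chromosome, 10 of 19 lay inside a protein-coding gene, 6 lay outside such genes and 3 lay at a gene end. Over all tip sites, 38.9% lay in gene bodies and 20.4% at gene ends. Other annotated genes held 8.27% and intergenic sequence 32.5%, and no preference is read from 19 sites. All 19 strongest sites had folds above 33 in both libraries, the sparse tips of chromosomes 3, 17 and 18 included.

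Among the sites inside genes were those of Cdh4, a cadherin gene (35.0 and 37.4 in replicates 1 and 2), Dscam, an adhesion gene of neurons (33.7 and 35.7), and Pard3, a polarity gene (36.1 and 35.2). The genes were named because they hold the site, which may act elsewhere. The 3 sites at gene ends were those of Camk1g, a calcium-dependent kinase gene (37.1 and 33.5), Depdc1a (33.7 and 33.2), whose promoter is printed above, and Krt71, a keratin gene of the hair root sheath (33.2 and 35.0). Of these, only the site at Depdc1a lay within 1000 bp of a RefSeq start. The strongest site of chromosome 9 lay outside protein-coding genes at chr9:122627087-122627462, 119.9 kb from the nearest one, Topaz1, which is needed for male meiosis, with 34.4 and 33.5.

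The widest tip site, 2082 bp, covered the start of Nab2, a corepressor of EGR transcription factors, at chr10:127666379-127668460. Its folds were 5.28 and 8.67 on 116 and 201 tags, so a wide site of many tags had a modest fold. Others among the 5 widest lay at Cd63, a tetraspanin gene (1822 bp, 8.33 and 8.83), at Baiap2 (1808 bp, 14.8 and 18.1), and at the neighbouring ends of Pigp and Ttc3 (1788 bp, 5.50 and 6.89). Sites wider than 1000 bp made up 3.62% of tip sites and 3.80% of the others.

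A few long genes held many sites, counted over the gene body with 50 kb on each side, also where these reach inward of the window. Camta1, a calmodulin-binding transcription activator gene, had 77 shared sites over 902.2 kb. Mtus2 had 55 over 458.8 kb and Fry 47 over 479.1 kb, both in the dense tip of chromosome 5. Pard3 had 39 over 648.9 kb, and Ablim1, an actin-binding gene, had 35 over 382.6 kb. The tips of chromosomes 4 (Camta1), 5, 8 (Pard3) and 19 (Ablim1) held 75.4, 89.6, 53.0 and 55.0 shared sites per Mb. A longer span holds more sites at the same density, so these counts do not rank the genes by density.

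The outermost shared site of each chromosome was usually outside protein-coding genes, and of middling fold but few tags. On 16 of 19 chromosomes it ended within 1 kb of the last peak of either library. Of these 19 sites, 14 lay outside protein-coding genes and more than 1000 bp from their ends, 3 lay at a gene end and 2 inside a gene. Over all tip sites, 32.5% were intergenic, 8.27% lay in other annotated genes, 20.4% at gene ends and 38.9% in gene bodies. The folds of the 19 outermost sites ran from 3.66 to 22.5 in replicate 1, with a median of 9.41, and from 3.83 to 17.1 in replicate 2, with a median of 9.60. The highest was at the end of Wls, a gene for Wnt secretion, at chr3:159937287-159937675, with 22.5 and 17.1. The lowest was inside Samd11, at chr4:156249151-156249505, with 3.66 and 3.83. Most of the 19 sites had fewer tags than the tip medians of 57 in replicate 1 and 56 in replicate 2. The site at Wls had 107 and 66 tags, that inside Samd11 had 19 and 18, and that of chromosome 11 had 11 and 15. The next site inward lay a median of 37.3 kb away, from 0.22 kb on chromosome 9 to 391.0 kb on chromosome 15.

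Between neighbouring sites the median gap ran from 5.86 kb on chromosome 15 to 46.0 kb on chromosome 18. The widest gap of all tips was 1114 kb on chromosome 10, at chr10:129026371-130140494. The tip of chromosome 10 holds 62 olfactory and vomeronasal receptor genes and was 1.85 times as dense in shared sites as its rest. The widest gaps on chromosomes 17 and 18 were 805.4 kb and 693.0 kb.

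Protein-coding genes of the tips often had an open end. A shared site came within 1000 bp of either gene end at 774 of 1098 genes. This was 70.5% of tip genes (95% Wilson interval 67.7 to 73.1) and 66.9% (66.2 to 67.5) of those on the rest, with 67.0% over all autosomal genes. The count ignores strand and includes sites at 3′ ends and sites of neighbouring genes. Of the 78 receptor genes in the tips, which are used in sensory neurons, 0 had one, which allows a share of up to 3.85% by a limit of 3 counts and 4.69% by the Wilson interval, against 1.89% of 1378 on the rest. Without receptor genes the shares were 75.9% of 1020 tip genes and 71.8% of 18189 others. Genes of the Zfp zinc finger name had one in 16 of 16 cases in the tips (interval 80.6 to 100%), against 83.1% of 372 on the rest.

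Of the germline, cohesin, telomere and piRNA lists, 8 genes lay in the tips, and each had a gene-end site in both libraries. Sycp2 had folds of 18.9 in replicate 1 and 22.97 in replicate 2, and Syce1, whose product joins the central element between paired chromosomes, had 18.0 and 21.9. Outside the tips, 24 of 24 other genes of that meiotic list also had one. Gfra1 was lower, at 6.98 and 6.71. So was Rarg, a retinoic acid receptor gene, with 8.06 and 11.6 at its lower-coordinate end, the 3′ end. Another shared site, over a RefSeq promoter inside Rarg, had 7.26 and 6.94. The other 24 of 24 genes of undifferentiated spermatogonia and 8 of 9 genes of differentiating ones had a gene-end site on the rest of the autosomes.

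Gtsf1 had the highest folds of the 8, at 27.7 and 28.2, whereas Tdrd1, another piRNA gene, had the lowest, at 5.08 and 4.69. On the rest of the autosomes 12 of 16 piRNA genes had one. Rtel1 had 20.3 and 23.1, beside 10 of 11 other telomere genes. Pds5b had 25.6 and 27.8 at its higher-coordinate end, the 3′ end, and 19.9 and 20.8 at the promoter printed above, beside 16 of 18 other cohesin and CTCF genes. These lists were chosen with results of the same libraries known, and so few members fall in the tips that nothing is read from their counts.

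In the tips, 3 gene clusters that were picked after their genes had been seen held genes with and genes without a gene-end site. Their counts stand beside 67.0% of all autosomal genes and 70.5% of all tip genes with a gene-end site. The Hoxc cluster on chromosome 15, which patterns the body axis, had a gene-end site at 8 of 9 genes, from Hoxc12 (3.58 and 4.81) up to Hoxc13 (21.4 and 21.4), and none at Hoxc4. In the keratin cluster of the same tip, whose genes make up epithelial filaments, 11 of 26 had one. Krt71 (33.2 and 35.0), Krt73 (28.8 and 30.2) and Krt6a (23.7 and 26.4) were high, whereas Krt5 and Krt2 had none. Krt8 and Krt18, the pair of simple epithelia, had 12.3 and 10.1, and 8.93 and 12.5.

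The imprinted cluster of distal chromosome 7 had a gene-end site at 8 of 11 genes, near the share of all tip genes. Nap1l4 had the highest folds, at 23.8 and 29.1, followed by Cd81 at 16.4 and 19.1. Ascl2, a transcription factor gene of the placenta, had 10.6 and 12.2, and Cdkn1c, a growth-restraining cell cycle inhibitor gene, had 9.07 and 12.7. Igf2, the growth factor gene, Ins2 and Tspan32 had none in the window.

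Of the 4 tips below their rest in density, that of chromosome 13 held 26 protein-coding genes, of which 13 had a gene-end site, against 67.0% over all autosomal genes. The other 3 had fewer genes, most of them open at an end. The tip of chromosome 17 held 4 protein-coding genes. Among them, Mettl4 had a gene-end site of 16.7 and 16.6 in replicates 1 and 2, and Gm20939 had one of 25.2 and 27.3. Adcyap1, a neuropeptide gene, had no gene-end site but held 3 shared sites inside it. The tip of chromosome 18 held 8 genes, and Rttn, which is needed for centriole assembly, had 30.7 and 30.5. Cd226, a receptor of immune cells, had no gene-end site and 1 shared site inside it. The tip of chromosome 3 held 13 genes, of which Cth, an enzyme of cysteine synthesis, had 31.6 and 33.7 and Depdc1a had the values above. Ankrd13c and Rpe65, a gene of the visual cycle, had no gene-end site, with 2 and 0 shared sites inside them. These genes were named after their values were seen. Strong single sites were found in each of the 19 tips, so they are not particular to these 3.

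Open promoters of the tips were rich in G, C and CpG. The promoter table, which covers 18 autosomes without chromosome 18, matched 893 of 1090 tip genes (81.9%) and held 1769 tip promoters. A shared site covered part of 826 of these, or 46.7%, against 45.1% elsewhere. Covered tip promoters had a median of 63.3% G and C and 22 CpG dinucleotides, against 49.3% and 4 in tip promoters with no site. Covered promoters elsewhere had 61.7% and 21.

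Of 7 motifs searched on both strands, the GC box GGGCGG stood in 66.1% of covered tip promoters, 15.3% of uncovered ones and 36.0% of all 31396 promoters, beside 65.2% of covered promoters elsewhere. In the same 3 groups the ETS site CCGGAAG stood in 20.7%, 4.03% and 9.004%, beside 16.6% of covered promoters elsewhere. The NRF1 half-site GCGCATG stood in 6.78%, 1.59% and 3.90%, the cAMP element TGACGTCA in 2.54%, 0.848% and 1.83%, and the E-box CACGTG in 12.1%, 5.94% and 7.14%. Covered promoters elsewhere held these 3 in 6.73%, 3.22% and 10.04% of cases. Base composition differed between these groups, and its part in the motif shares was not tested. CCAAT stood in 37.3% of covered tip promoters, 35.4% of uncovered ones and 37.3% of all, beside 37.4% of covered promoters elsewhere. The telomere repeat unit TTAGGG stood in 10.0% of covered tip promoters, 10.3% of uncovered ones and 10.6% of all, beside 10.3% of covered promoters elsewhere. Matches of the GC box, the ETS site and CCAAT overlapped each other in 8 of 826 covered tip promoters. A motif that is not found says only that its letters are not in these 300 bases.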

How the data were processed

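ATAC-seq was run on 2 libraries of Stag3 KO GSCs, 1 group by the genotype label, numbered as in their titles. Per the submitters' processing notes, the tools were MACS2 2.1.1, deepTools 3.5.0, bedtools 2.29.2, Picard 2.18.23, Trim Galore and Bowtie2 2.3.4.1, with mm10 and GRCm38.p3 as builds. Settings (Tn5 shift, duplicates, problem regions) are not given in the sources used here, and can add or remove sites near telomeres. The authors deposited 1 peak list per library, with the fold (a ratio of tags to local background, used to describe and rank sites), and a deposited −log10 p-value and −log10 q-value per peak. The smallest −log10 p-value was 4.01 in replicate 1 and 4.12 in replicate 2.

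Tags at each summit were recovered as the whole number that solves the Poisson p-value together with the fold, (tags + 1)/(background + 1). This succeeded for 100% of peaks in each list, within 1e-05 relative plus 0.0001 in −log10 units. Library depth is unknown.

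A shared site joins a replicate 1 peak with the replicate 2 peak it overlaps most. The rest of a chromosome runs from its first peak to the 5 Mb window. Genes and promoters came from RefSeq tables on GRCm38.p6, and a gene belongs to a tip by its midpoint. A site's place is that of its summit. Wilson intervals are at 95% and cover counting error only. Python 3.11.15, numpy 2.4.6, pandas 2.3.3 and scipy 1.17.1 were used, and the scripts were tested on simulated data. No test was run. Alternatives were windows of 2 and 10 Mb, an overlap of 50% of both peaks, a −log10 q of at least 5, each library alone, the rest counted from base 1, tags in place of fold, gene ends within 2500 bp and, chosen after seeing the data, RefSeq starts.

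Named regions were the strongest (highest mean percentile of fold) and the outermost of each chromosome, the 10 strongest and the 5 widest; named genes were those at them, the list genes in the tips and the 5 with most sites within 50 kb. Those in the Hoxc, keratin and imprinted clusters and in the sparse tips were chosen after their values were seen. A few named items are left out of the text. The members and lists were chosen with earlier results of these data known.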

Additional observations from a re-analysis of the deposited data

How the results depend on the processing

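Of 51 alternative values, 25 stayed close to the reported one, 24 moved by more than the spread between the libraries, the counting interval or 1.5 times, and 2 ratios of tip to rest crossed 1. Both did so with a window of 2 Mb: the median density ratio was 0.92 (reported 1.56) and the sites per gene, tip over rest, 0.79 (reported 1.11). With that window 9 of 19 chromosomes were denser in the tip (reported 15), the mean of the median folds was 10.6 in the tips and 10.7 on the rest (reported 10.99 and 10.7), and the gene-end share was 26.5% in the tips and 20.5% on the rest (reported 20.4% and 20.6%), so the order of tip and rest turned in these values too. With 10 Mb the fold was 10.9, the gene-end share 18.4% and the sites per gene 1.21. An overlap of 50% of both peaks gave a density ratio of 1.61, a fold of 11.4, a shared share of 76.5% in the tips and 73.4% on the rest, and a gene-end site at 68.2% of tip genes. A −log10 q of at least 5 gave a fold of 11.3 and 70.1% of tip genes. Counting the rest from base 1 gave a density ratio of 1.60, and gene ends within 2500 bp gave 28.1% of tip sites, against 27.8% on the rest, and 78.2% of tip genes. RefSeq starts gave 20.6% of tip sites and 20.5% of the others. Tags in place of fold had a median of 56.5 in the tips and 51.5 on the rest, a change of unit that also counted as moved. Each library alone, over all its peaks, gave density ratios of 1.53 and 1.57, median folds of 9.09 and 9.26 in the tips, gene-end shares of 18.3% and 19.6% in the tips against 17.7% and 19.2% on the rest, again in the other order than reported, 72.3% of tip genes with both, and 1.06 and 1.09 for sites per gene. Each library alone includes its weaker unshared peaks by construction. The libraries alone gave the same share of tip genes, a spread of 0, so any change in that share counted as moved. The cause of the other changes was not tested. Read depth and mappability near the telomeres are unknown here, so sparse stretches may hold sites that were not detectable. No paired analysis was possible because the series holds 1 group.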
